A study of Homo sapiens with 8 samples.

Results

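The heat shock genes of the cytosol and the mitochondrion were read in HepG2 cells exposed to benzo[a]pyrene (BaP), a polycyclic aromatic hydrocarbon. The 35 members were taken by gene symbol, and all 35 were found among the 49733 Ensembl gene IDs counted. They comprised the HSP70, HSP110, HSP90 and small heat shock families, the mitochondrial chaperones, J-domain proteins, BAG-family nucleotide exchange factors, HSP90 co-chaperones and the heat shock factors HSF1 and HSF2. HSPA13, which was listed with them, is known as a microsome-associated protein and was kept as the list gave it.

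HepG2 is a human hepatocellular carcinoma line. At 80% confluence the cells were given fresh medium with either 2 µM BaP or the 0.5% DMSO vehicle, and poly-A RNA was sequenced after 12 h or 24 h. This gave 8 libraries in 4 groups: BaP 12 h, vehicle 12 h, BaP 24 h and vehicle 24 h, each with 2 libraries from independent experiments. Both times therefore followed a medium change, which all groups shared, and the p-values reflect the spread between these libraries of 1 cell line. The serum-containing culture medium with antibiotics was also common to all groups.

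Heat shock proteins bind unfolded or partly folded proteins. HSP70 works in cycles driven by ATP: a J-domain protein delivers the client and stimulates ATP hydrolysis, and an HSP110 or BAG protein then exchanges the nucleotide so that the client is released. HSP90 acts later on near-native clients, among them the unliganded aryl hydrocarbon receptor, to which BaP binds. HSF1 is the main transcription factor of the heat shock response, and it binds inverted repeats of the letters GAA, called heat shock elements, upstream of many of these genes.

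Promoter windows from RefSeq (GRCh38.p14, 250 bases before to 50 after each start) were available for 32 members, with 48 windows in all, and were searched on both strands. HSPA14, HSF1 and CRYAB had no window in the set searched, which does not show that RefSeq holds none for them. A heat shock element of 3 units, GAANNTTC followed by NNGAA, lay in 7 of the 48 windows (14.6%), against 0.49% of all 35116 windows searched. These were windows of HSPA8, HSPD1, HSP90AA1, HSP90AB1, DNAJA1, DNAJB6 and CHORDC1. The 2-unit form GAANNTTC, which overlaps the 3-unit form, lay in 31.2% of member windows and 6.77% of all windows, and TTCNNGAA, which also overlaps it, in 22.9% and 7.74%. The aryl hydrocarbon receptor core GCGTG lay in 45.8% of member windows and 36.5% of all, and the antioxidant response form TGACNNNGC in 12.5% and 13.3%. A match describes letters in a window and is not a measured site, and the windows of 1 gene can overlap.

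The stretches around the 3-unit element are shown for the 4 members with the highest mean transcript levels in vehicle. HSPE1, close behind them, had no such element in a window. Capitals mark that element and any 2-unit form in the stretch: in HSP90AA1 the first run of capitals is the 3-unit element and the second a 2-unit form. They lie at chr11:123062159-123062211 (minus strand, HSPA8), chr2:197500048-197500090 (minus, HSPD1), chr14:102087100-102087152 (minus, HSP90AA1) and chr6:44247811-44247863 (plus, HSP90AB1), each before the start of its own window; some of these genes have further starts upstream.
HSPA8: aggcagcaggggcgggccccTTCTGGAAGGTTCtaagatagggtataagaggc
HSPD1: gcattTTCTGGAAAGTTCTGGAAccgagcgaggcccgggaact
HSP90AA1: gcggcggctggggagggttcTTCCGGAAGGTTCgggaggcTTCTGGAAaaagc
HSP90AB1: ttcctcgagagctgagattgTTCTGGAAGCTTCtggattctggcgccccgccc

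None of the 8 members that rose with BaP at 12 h, described below, had the 3-unit element in a window. Nor did HSPA1A, HSPA1B, HSPB1 or DNAJB1. Only exact matches within these windows were sought, so a missing match does not show that a gene lacks an element. A 2-unit form lay in a window of 4 of these 8, against 14 of the other 24 members with windows, of which 7 also had the 3-unit element. The 4 stretches are shown with the 2-unit form in capitals. They lie at chr4:127782132-127782179 (HSPA4L), chr12:119178823-119178870 (HSPB8), chr1:78004821-78004868 (DNAJB4) and chr6:57172182-57172229 (BAG2), all on the plus strand.
HSPA4L: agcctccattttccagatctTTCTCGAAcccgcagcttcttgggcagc
HSPB8: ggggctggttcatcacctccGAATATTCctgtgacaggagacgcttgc
DNAJB4: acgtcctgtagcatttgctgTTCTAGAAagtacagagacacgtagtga
BAG2: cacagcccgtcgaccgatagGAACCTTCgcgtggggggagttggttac

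HSPA1A and HSPA1B, which encode the stress-inducible HSP70, are neighbouring, near-identical copies. Their RefSeq windows matched at 277 of 299 aligned bases (92.6%), and the shared 2-unit form is in capitals in the stretches at chr6:31815417-31815464 (HSPA1A) and chr6:31827613-31827660 (HSPA1B), both on the plus strand. How reads were divided between these copies is uncertain, so their sum was also tested.
HSPA1A: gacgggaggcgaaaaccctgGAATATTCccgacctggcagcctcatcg
HSPA1B: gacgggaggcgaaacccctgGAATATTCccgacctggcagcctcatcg

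Library totals ranged from 5590972 to 16533490 estimated counts, except for replicate 1 of BaP 24 h, which had 2592272. Exposure showed in CYP1A1, an aryl hydrocarbon receptor target with a mean of 1013 CPM (counts scaled to a fixed total per library) in BaP 12 h against 5.03 in vehicle 12 h, and 341 against 1.56 CPM at 24 h. CDKN1A, a p53 target, had means of 395 against 97.4 CPM at 12 h and 430 against 118 CPM at 24 h. The summed level of 10 hepatocyte markers was 21240 to 22810 CPM in BaP 12 h, 27790 to 29870 in vehicle 12 h, 24480 to 27470 in BaP 24 h and 33170 to 37910 in vehicle 24 h. Fibroblast and stellate markers (6 genes) summed to 20.01 to 28.95 CPM in BaP 12 h, 35.3 to 59.9 in vehicle 12 h, 25.8 to 31.5 in BaP 24 h and 39.6 to 57.2 in vehicle 24 h, with DCN and LUM at 0. Leukocyte and endothelial markers (7 genes) summed to 589 to 593 CPM in BaP 12 h and 552 to 671 in vehicle 12 h. At 24 h they summed to 919 to 961 CPM with BaP and 973 to 991 with vehicle. CD3E was at 0. Most of each leukocyte and endothelial sum was LYZ, at 508.5 to 949 CPM per library. Of the hepatocyte markers APOB alone passed in edgeR, with means of 6554 CPM in BaP 12 h against 11500 in vehicle 12 h and 8143 against 13650 at 24 h. DESeq2 also called TF and AHSG lower at 24 h (adjusted p = 0.0054 and 0.036). Of 2 fibroblast and stellate markers tested, PDGFRB fell at 12 h (log2 -0.88) and passed in edgeR and by DESeq2. The monocyte marker CD14 rose with BaP, from means of 1.51 to 3.09 CPM at 12 h (log2 1.04, edgeR adjusted p = 0.048) and 2.10 to 6.34 CPM at 24 h (1.54, adjusted p = 0.0096). The macrophage marker CD68 rose at 24 h (log2 0.56, edgeR adjusted p = 0.019). DESeq2 gave CD14 an adjusted p of 0.29 and 0.053 and CD68 at 24 h one of 0.043. Of the 4 leukocyte and endothelial markers tested, 2 were above and 2 below 0 at each time. Among those below, the endothelial marker CDH5 had log2 changes of -0.75 at 12 h and -1.53 at 24 h and did not pass. The hepatocyte and fibroblast sums, CD14 and CD68 moved with exposure and the LYZ level with time, and their part in the results below was not tested. In bulk RNA, fewer cells of a kind and less RNA per cell cannot be told apart.

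Levels can be compared between genes only after correction for length, as transcripts scaled to a fixed total per library (TPM). On that scale HSP90AB1, the constitutive HSP90, stood highest at 997 to 1176 TPM in the 4 vehicle libraries. HSPA8, the constitutive HSP70, followed at 334 to 650, then HSPD1 (HSP60) at 377 to 465, HSP90AA1 (inducible HSP90) at 293 to 546 and HSPE1 (HSP10, the partner of HSP60) at 361 to 451. The ranges of these 4 overlapped, so their order is not set by these libraries, whereas HSP90AB1 lay above all 4. HSPB1 (HSP27) had 198 to 318 and HSPA1A 115 to 193 TPM. The lowest vehicle means were 0.585 TPM for HSPB8 and 0.304 TPM for DNAJA4. The 5 highest members held 65.9% to 70.4% of the members' transcripts in each library.

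**Figure D1:**
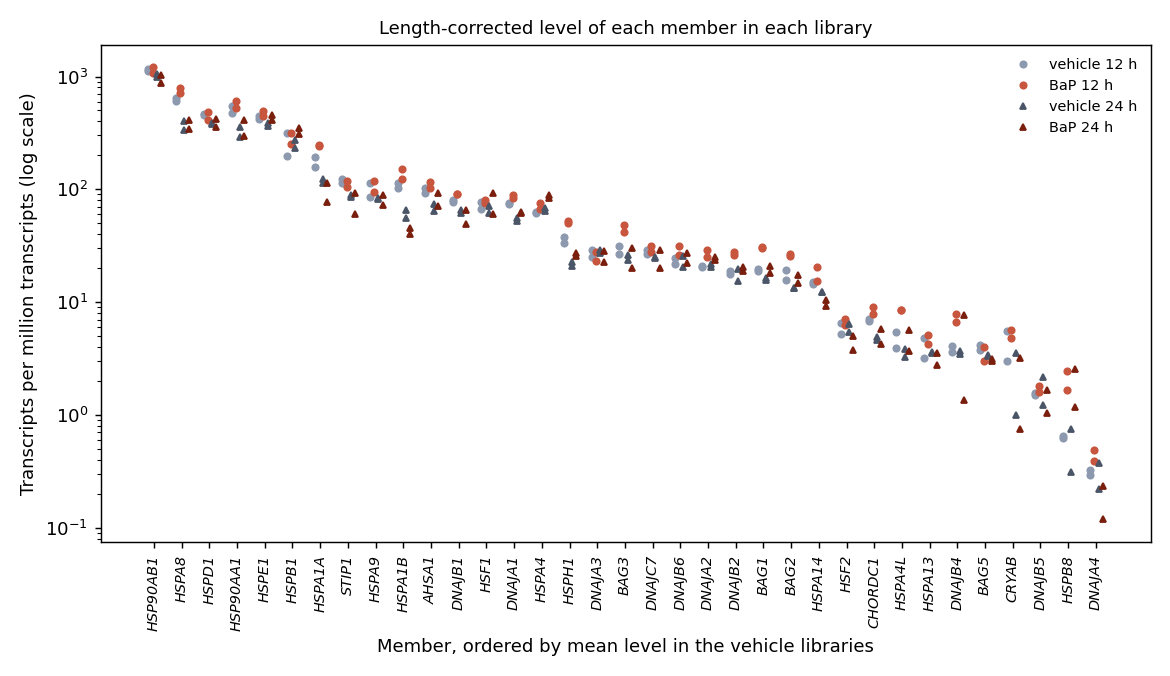
TPM, length-corrected transcripts scaled to a fixed total (log axis), of each of the 35 members in each of the 8 libraries, in order of the vehicle mean; circles are 12 h and triangles 24 h libraries. HSP90AB1 is highest at 878 to 1208 TPM and DNAJA4 lowest at 0.118 to 0.489.

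Together the members made up 0.489% and 0.523% of all transcripts in the BaP 12 h libraries and 0.471% and 0.448% in vehicle 12 h. The shares were 0.404% and 0.345% in BaP 24 h and 0.376% and 0.349% in vehicle 24 h. Both 24 h groups lay below both 12 h groups, while BaP and vehicle overlapped at 24 h and BaP lay narrowly above vehicle at 12 h.

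At 12 h, BaP raised the transcripts of 8 members and lowered none at an adjusted p under 0.05 in edgeR's quasi-likelihood test. The 8 were the HSP110-type exchange factors HSPA4L and HSPH1, the J-domain genes DNAJB2 and DNAJB4, the small heat shock gene HSPB8 and the BAG genes BAG1, BAG2 and BAG3. None of the HSP90, HSP60 or core HSP70 genes passed. The 8 were 23.5% of the 34 members tested, against 3.41% of the 14746 genes tested that rose and 4.84% that fell. The members were chosen with earlier results of these data known, which limits the reading of these shares. DNAJA4, at 1 to 10 counts per library, was not tested. The median log2 change of the 34 was 0.20 against 0.02 over all genes, with 30 above and 4 below 0. The count of 0 falls in edgeR was also 0 at an unadjusted p under 0.05 and 0 by DESeq2.

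**Figure D2:**
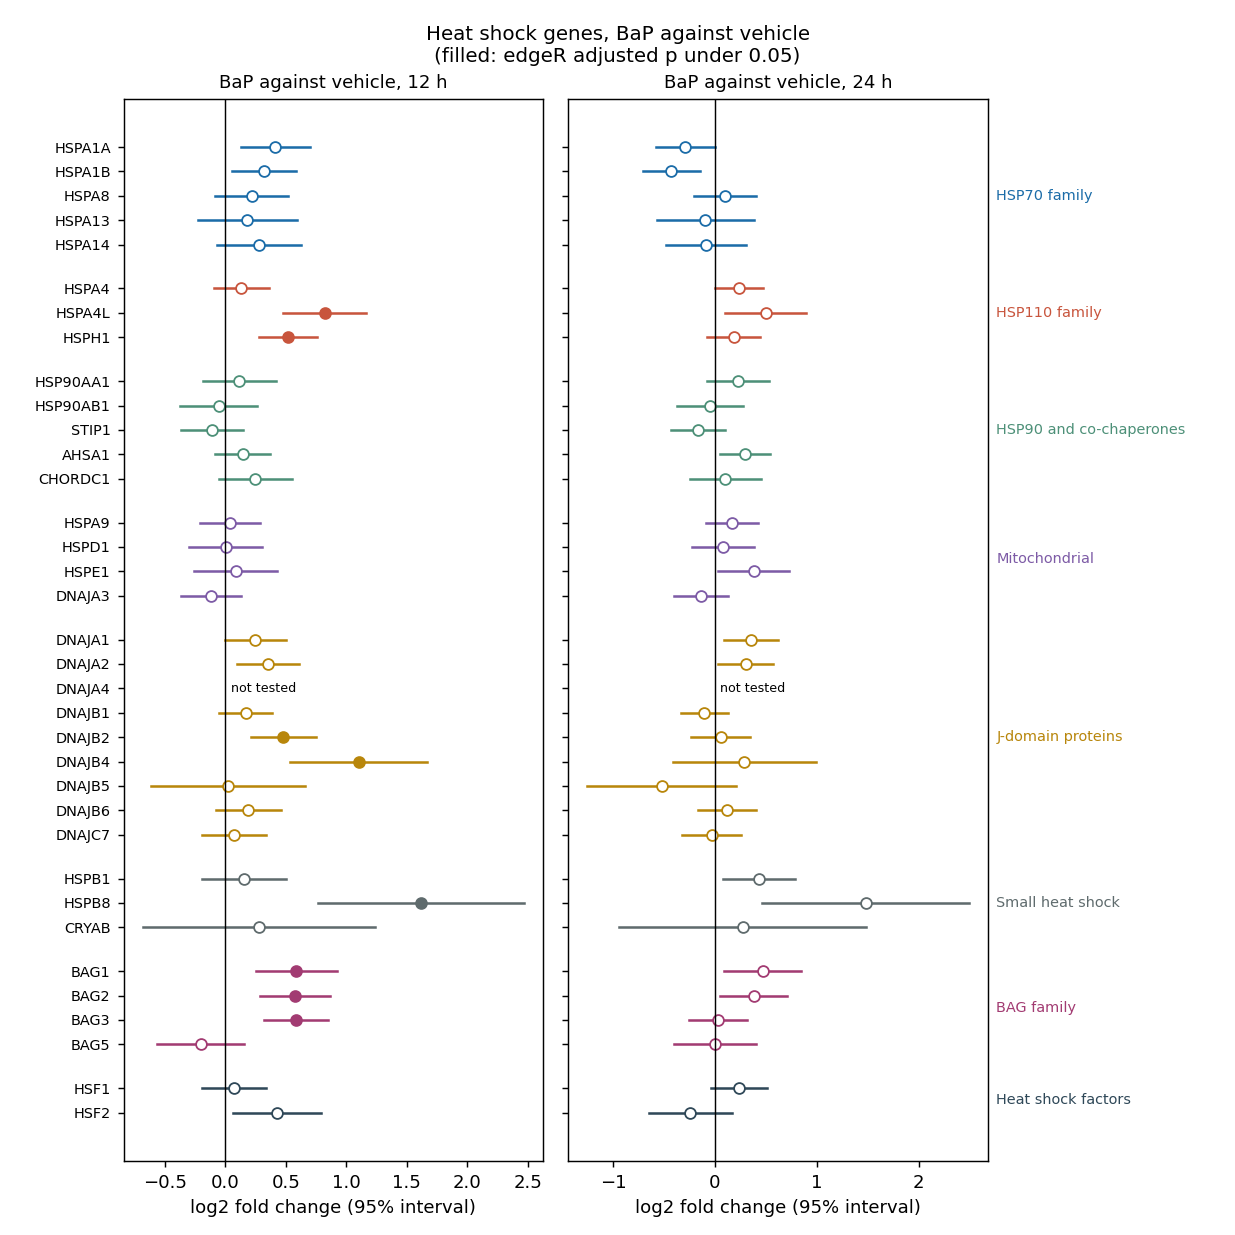
Log2 fold change of BaP against vehicle at 12 h (left) and 24 h (right) with its 95% interval for each member, by family; filled points had an edgeR adjusted p under 0.05, and DNAJA4 was not tested. The 8 filled points, all at 12 h, lie between 0.48 and 1.62.

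Among the exchange factors, HSPA4L (an HSP110-family member) read 24.8 and 25.2 CPM in BaP 12 h, 12.3 and 15.9 in vehicle 12 h, 17.3 and 15.6 in BaP 24 h, and 12.1 and 10.3 in vehicle 24 h. Both BaP libraries lay above both vehicle libraries at each time. At 12 h the level was 1.77-fold higher (log2 0.82 ± 0.16 SE, adjusted p = 0.0036, n = 2 and 2, edgeR).
HSPH1, the main cytosolic HSP110, read 126.2 and 125.9 CPM in BaP 12 h, 82.1 and 94.3 in vehicle 12 h, 70.2 and 62.1 in BaP 24 h, and 58.5 and 56.3 in vehicle 24 h. Its 12 h groups were well apart, and every 24 h library was lower than every 12 h library. The 12 h change was log2 0.51 ± 0.11 SE (1.43-fold, edgeR adjusted p = 0.0084). HSPA4, the third gene of the family, lay within 98.5 to 122 CPM in all libraries and its log2 change of 0.13 at 12 h had an adjusted p of 0.58.

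The BAG genes gave 3 rises of similar size. BAG3, which couples HSP70 to selective autophagy and binds HSPB8, read 96.4 and 83.4 CPM in BaP 12 h, 63.9 and 55.8 in vehicle 12 h, 60.4 and 51.8 in BaP 24 h, and 55.2 and 52.3 in vehicle 24 h. The BaP 12 h libraries stood above the other 6, which overlapped. BAG3 rose by log2 0.58 ± 0.12 SE at 12 h (edgeR adjusted p = 0.0061).
BAG2, an inhibitor of the ubiquitin ligase CHIP, read 36.7 CPM in both BaP 12 h libraries, 22.1 and 27.1 in vehicle 12 h, 24.4 and 26.3 in BaP 24 h, and 19.5 and 19.9 in vehicle 24 h. BaP libraries were again above vehicle at each time. The 12 h change was log2 0.58 ± 0.14 SE (edgeR adjusted p = 0.014).
BAG1, which links HSP70 to the proteasome, read 31.1 and 30.5 CPM in BaP 12 h, 20.1 and 20.9 in vehicle 12 h, 17.6 and 27.0 in BaP 24 h, and 16.9 and 17.6 in vehicle 24 h. The 12 h groups did not overlap, and at 24 h replicate 1 of BaP lay at the vehicle level. BAG1 rose by log2 0.59 ± 0.16 SE at 12 h (edgeR adjusted p = 0.029). BAG5 read 12.55 and 16.47 CPM with BaP against 15.7 and 18.0 with vehicle at 12 h, a log2 difference of -0.20 (adjusted p = 0.59).

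HSPB8, a small heat shock protein of low abundance here, read 4.07 and 2.69 CPM in BaP 12 h, 1.03 and 1.12 in vehicle 12 h, 4.13 and 2.41 in BaP 24 h, and 1.27 and 0.563 in vehicle 24 h. These values rest on 3 to 36 counts per library. All 4 BaP libraries lay above all 4 vehicle libraries. At 12 h the change was log2 1.62 ± 0.40 SE (3.06-fold, 95% interval 0.76 to 2.47, edgeR adjusted p = 0.019). The other small heat shock genes had log2 changes at 12 h of 0.16 ± 0.16 SE for HSPB1 (adjusted p = 0.69) and 0.28 ± 0.45 SE for CRYAB (adjusted p = 0.82).

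The J-domain genes held 2 of the 8 rises. DNAJB4, a cytosolic partner of HSP70, read 7.79 and 7.24 CPM in BaP 12 h, 3.32 and 3.63 in vehicle 12 h, 6.75 and 3.28 in BaP 24 h, and 3.31 and 3.56 in vehicle 24 h. The 12 h groups were apart, while the BaP 24 h libraries differed from each other and replicate 2 lay at the vehicle level. The 12 h change was log2 1.104 ± 0.267 SE (2.15-fold, edgeR adjusted p = 0.016).
DNAJB2, a J-domain protein that binds ubiquitinated clients, read 44.6 and 42.1 CPM in BaP 12 h, 32.8 and 29.3 in vehicle 12 h, 31.1 and 34.9 in BaP 24 h, and 32.5 and 31.9 in vehicle 24 h. Only the BaP 12 h libraries stood apart. The change there was log2 0.48 ± 0.13 SE (edgeR adjusted p = 0.025). The other 7 J-domain members tested, counting the mitochondrial DNAJA3, did not pass at 12 h, and their log2 changes ran from -0.12 for DNAJA3 to 0.35 for DNAJA2 (adjusted p = 0.095). Among them, DNAJB6 (a suppressor of polyglutamine aggregation) stood at 0.19, DNAJC7 (an adaptor between HSP70 and HSP90) at 0.07 and DNAJB5, with 4 to 44 counts per library, at 0.02.

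**Figure D3:**
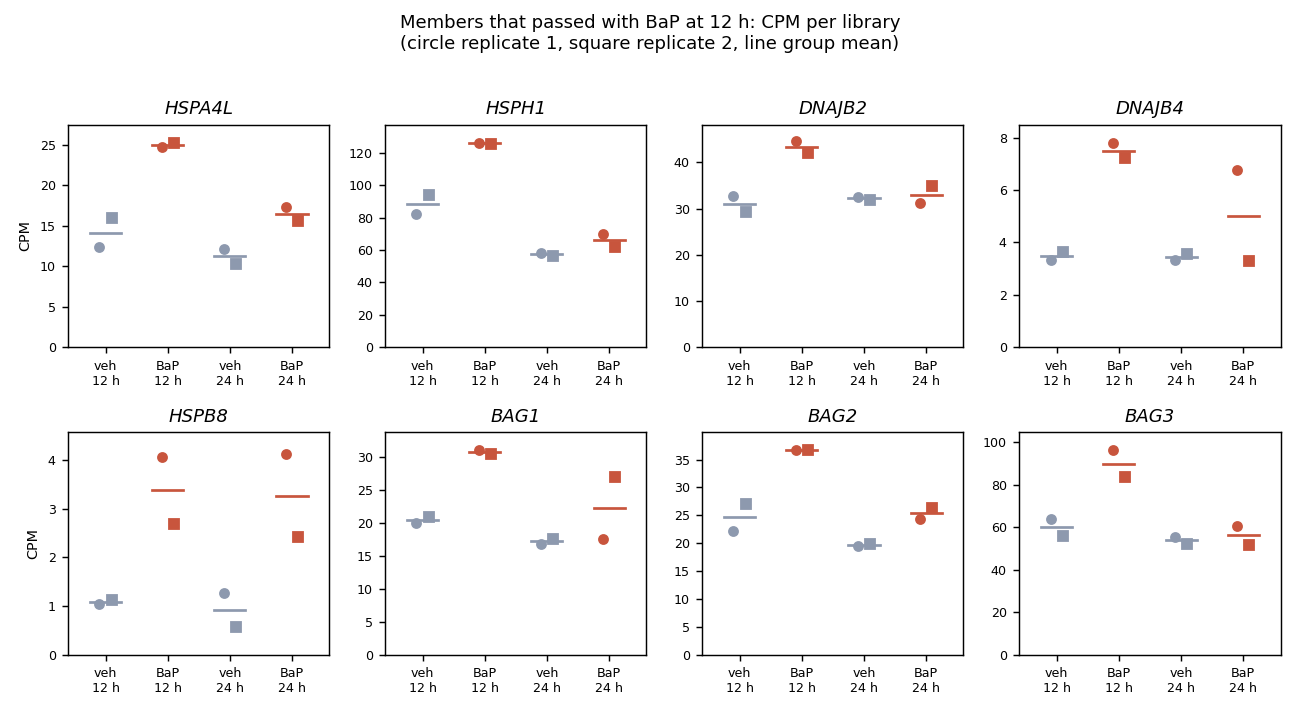
CPM (linear axis from 0) of the 8 members that passed with BaP at 12 h, in every library; grey is vehicle, red is BaP, circles and squares are replicates 1 and 2 and lines are group means. In each panel both BaP 12 h points lie above both vehicle 12 h points.

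HSP70 genes with the largest read counts moved less. HSPA1A read 422 and 419 CPM in BaP 12 h, 343 and 288.5 in vehicle 12 h, 196 and 163 in BaP 24 h, and 207 and 230 in vehicle 24 h. BaP libraries were above vehicle at 12 h and below it at 24 h. The 12 h difference of log2 0.41 ± 0.13 SE had an edgeR adjusted p of 0.069, and for the sum of HSPA1A and HSPA1B it was 0.38 (adjusted p = 0.098). With only the 4 libraries of 12 h in the fit, HSPA1A passed (log2 0.39, adjusted p = 0.024).
HSPA1B read 242.5 and 292 CPM in BaP 12 h, 221 and 208 in vehicle 12 h, 85.5 and 98.9 in BaP 24 h, and 132 and 118.5 in vehicle 24 h. Its order of groups was that of HSPA1A. The 12 h difference was log2 0.32 ± 0.12 SE (edgeR adjusted p = 0.15).
HSPA8 read 1295 and 1412 CPM in BaP 12 h, 1176 and 1152 in vehicle 12 h, 718 and 789 in BaP 24 h, and 745 and 663 in vehicle 24 h. Time separated these libraries more than BaP did, and the 24 h groups overlapped. The 12 h difference was log2 0.22 ± 0.14 SE (edgeR adjusted p = 0.46). HSPA8, HSPD1, HSPE1 and both HSP90 genes have processed pseudogenes, so the division of their reads is also uncertain. HSPA13 and the ribosome-associated HSPA14 had log2 differences of 0.18 and 0.28 at 12 h (adjusted p = 0.7 and 0.4).

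Neither HSP90 gene passed at 12 h. HSP90AA1 read 1064 and 1132 CPM in BaP 12 h, 945 and 1082 in vehicle 12 h, 740 and 823 in BaP 24 h, and 696 and 639 in vehicle 24 h. The 12 h groups overlapped, with a log2 difference of 0.12 ± 0.14 SE (edgeR adjusted p = 0.74).
HSP90AB1 read 2239 and 2455 CPM in BaP 12 h, 2471 and 2409 in vehicle 12 h, 2097 and 2299 in BaP 24 h, and 2250 and 2296 in vehicle 24 h. All groups of this gene overlapped at each time, and the 12 h difference of log2 -0.06 ± 0.15 SE had a 95% interval of -0.38 to 0.26. Of the HSP90 co-chaperones, STIP1 (the HSP70-HSP90 adaptor), AHSA1 (the activator of the HSP90 ATPase) and CHORDC1 had log2 differences of -0.11, 0.14 and 0.25, with adjusted p from 0.37 to 0.71.

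The mitochondrial chaperones stayed near 0 on the log2 scale at 12 h. HSPD1 read 790 and 870 CPM in BaP 12 h, 783 and 873.5 in vehicle 12 h, 761 and 874 in BaP 24 h, and 747 and 804.5 in vehicle 24 h. The groups overlapped at both times, with a 12 h difference of 0.00 ± 0.14 SE (95% interval -0.30 to 0.31, edgeR adjusted p = 0.99).
HSPE1 read 286 and 252 CPM in BaP 12 h, 254 and 253 in vehicle 12 h, 234 and 358 in BaP 24 h, and 234 and 224 in vehicle 24 h. Replicate 2 of BaP 24 h stood above the other 7 libraries in CPM. In TPM it did not, at 460 against 490 in replicate 1 of BaP 12 h. HSPE1 differed by log2 0.09 ± 0.16 SE at 12 h (edgeR adjusted p = 0.84).
HSPA9 (mortalin, the mitochondrial HSP70) read 227 and 252.5 CPM in BaP 12 h, 227 and 239 in vehicle 12 h, 205 and 229 in BaP 24 h, and 193 and 195 in vehicle 24 h. The 12 h groups overlapped, and the difference was log2 0.04 ± 0.12 SE (edgeR adjusted p = 0.91). The 12 h signs of HSPD1, HSPE1, HSPA9 and HSP90AB1 changed when single libraries were left out.

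The regulators themselves did not pass. HSF1 read 131.5 and 119 CPM in BaP 12 h, 127 and 112 in vehicle 12 h, 144 and 122 in BaP 24 h, and 104 and 121 in vehicle 24 h. Its groups overlapped at 12 h and lay narrowly apart at 24 h, with log2 differences of 0.07 ± 0.12 SE (edgeR adjusted p = 0.84) and 0.23 ± 0.13 SE (adjusted p = 0.34).
HSF2 read 12.6 and 13.6 CPM in BaP 12 h, 8.93 and 10.6 in vehicle 12 h, 10.5 and 10.2 in BaP 24 h, and 11.4 and 13.3 in vehicle 24 h. BaP was above vehicle at 12 h and below it at 24 h. The differences were log2 0.43 ± 0.17 SE (edgeR adjusted p = 0.16) and -0.24 ± 0.19 SE (adjusted p = 0.54).

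The number of rises at 12 h depended on single libraries and on the test. So did the number over all genes, which was 503 in edgeR and 289 by DESeq2. When a library was left out, both numbers moved in the same direction each time, so the shifts were not particular to the members. DESeq2's Wald test called 4 of the 8 (HSPA4L, HSPH1, BAG2 and BAG3), and the other 4 had adjusted p from 0.09 to 0.1. With replicate 1 of BaP 12 h left out, only HSPA4L passed in edgeR and the other 7 had adjusted p from 0.096 to 0.25. Without replicate 2 of BaP 12 h, HSPA4L, HSPB8 and BAG3 passed, and the lost 5 had adjusted p from 0.093 to 0.16. Without replicate 1 of vehicle 12 h, HSPA4L, DNAJB2 and BAG3 passed (lost: 0.088 to 0.12), and without replicate 2, HSPA4L, HSPH1 and BAG2 (lost: 0.059 to 0.16). Leaving out either vehicle 24 h library lost DNAJB2 and BAG1 (adjusted p 0.05 to 0.054). Leaving out either BaP 24 h library gave 10 rises, with HSPA1A and DNAJA2 added. HSPA4L passed in all 8 such fits, with log2 changes from 0.65 to 1.00 and adjusted p from 6e-04 to 0.048.

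At 24 h no member passed in edgeR, against 3.11% of all genes that rose and 2.2% that fell. At an unadjusted p under 0.05, 9 members were higher and 1 lower, and DESeq2 called none. The median log2 difference of the 34 members was 0.11 against 0.01 over all genes, and 23 were above 0. The largest difference was again that of HSPB8, at log2 1.48 ± 0.48 SE (edgeR adjusted p = 0.089). HSPA4L stood at 0.50 ± 0.19 SE (adjusted p = 0.15), BAG1 at 0.47 ± 0.18 (0.15) and BAG2 at 0.38 ± 0.16 (0.18), all on the log2 scale with edgeR adjusted p in brackets. BAG3, DNAJB2 and HSPH1 had log2 differences of 0.03, 0.06 and 0.18.

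HSPB1 read 203 and 158 CPM in BaP 12 h, 190 and 133 in vehicle 12 h, 224 and 234.5 in BaP 24 h, and 178 and 161 in vehicle 24 h. Its 24 h groups were apart and its 12 h groups overlapped. The 24 h difference of log2 0.44 ± 0.17 SE had an edgeR adjusted p of 0.16, and passed with no filter on low counts (log2 0.41, adjusted p = 0.046).
DNAJA1, the main cytosolic type A J-domain protein, read 162 and 167 CPM in BaP 12 h, 140 and 137 in vehicle 12 h, 119 and 152 in BaP 24 h, and 108 and 107 in vehicle 24 h. BaP libraries lay above vehicle at each time, by log2 0.25 ± 0.12 SE at 12 h (edgeR adjusted p = 0.27) and 0.35 ± 0.12 SE at 24 h (adjusted p = 0.12).
DNAJB1 (HSP40) read 169 and 166 CPM in BaP 12 h, 151 and 148 in vehicle 12 h, 118 and 115 in BaP 24 h, and 125.0 and 125.1 in vehicle 24 h. Its small shifts, log2 0.17 ± 0.10 SE at 12 h and -0.11 ± 0.11 SE at 24 h, had edgeR adjusted p of 0.43 and 0.65.

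The calls at 24 h depended on which BaP library was kept, and whether depth played a part was not tested. HSPE1 and BAG1 read at the vehicle level in the shallow replicate 1 and above it in replicate 2. DNAJA1 and DNAJA2 read above vehicle in both. With replicate 1 of BaP 24 h left out, 4 members passed at 24 h in edgeR: HSPE1 (log2 0.64, adjusted p = 0.0014), DNAJA1 (0.50, 0.0073), BAG1 (0.64, 0.010) and DNAJA2 (0.41, 0.042). This was 11.8% of the 34 members, in a fit where 1230 of 15329 genes (8.02%) rose. These values compare 1 BaP library with 2 vehicle libraries and assume that it varies like the other groups. With replicate 2 left out instead, 0 passed, and HSPE1 had a log2 difference of 0.03 (adjusted p = 0.97). HSPA1B, lower in both BaP 24 h libraries, had a log2 difference of -0.43 ± 0.13 SE (edgeR adjusted p = 0.076), which passed with no filter on low counts (-0.46, adjusted p = 0.026). HSPA1A had -0.29 ± 0.14 SE (adjusted p = 0.25).

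Whether the response to BaP differed between the times was tested directly, as the 24 h change minus the 12 h change, each against its own vehicle. No member passed in edgeR, against 0.461% of all genes with a higher and 0.0814% with a lower change at 24 h. At an unadjusted p under 0.05, 5 members were lower (HSPA1A, HSPA1B, DNAJB2, BAG3 and HSF2) and 0 higher. DESeq2 called HSPA1B alone (adjusted p = 0.038). For HSPA1B the difference was log2 -0.75 ± 0.18 SE (edgeR adjusted p = 0.093) and for HSPA1A -0.70 ± 0.19 SE (adjusted p = 0.15). Both passed with no filter on low counts (adjusted p = 0.012 and 0.031). Without replicate 1 of BaP 24 h both passed (HSPA1B log2 -0.66, adjusted p = 0.05; HSPA1A -0.82, 0.014), and without replicate 2 HSPA1B passed (-0.88, 0.025). BAG3 had a difference of -0.55 ± 0.18 SE (edgeR adjusted p = 0.28). None of the 8 rises at 12 h therefore had a difference between the times that passed in edgeR.

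In vehicle alone, 6 members fell between 12 h and 24 h and 0 rose. They were the HSP70 genes HSPA1A, HSPA1B and HSPA8, the exchange factor HSPH1, HSP90AA1 and its co-chaperone AHSA1. This was 17.6% of the 34 tested, against 1.01% of all genes that fell and 2.27% that rose. That the members were chosen with earlier results of these data known limits these shares too. At an unadjusted p under 0.05, 12 were lower and 0 higher, and DESeq2 called 6 lower and 0 higher. The members' median log2 change was -0.19 against 0.01 over all genes, with 28 below 0. This comparison shares its libraries with the comparisons of BaP against vehicle, and is not independent of them.

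The changes were log2 -0.78 ± 0.13 SE for HSPA1B (edgeR adjusted p = 0.0026), -0.72 ± 0.14 for HSPA8 (0.0095), -0.62 ± 0.12 for HSPH1 (0.0073), -0.60 ± 0.14 for HSP90AA1 (0.03) and -0.53 ± 0.13 for HSPA1A (0.04). AHSA1 read 111 and 104 CPM in vehicle 12 h, 82.4 and 76.7 in vehicle 24 h, 113 and 124 in BaP 12 h, and 98.3 and 97.3 in BaP 24 h. Its vehicle change was log2 -0.43 ± 0.11 SE (edgeR adjusted p = 0.045). For all 6 genes the vehicle groups did not overlap, and the CPM values given above show the BaP 24 h libraries below the BaP 12 h libraries as well. The sum of HSPA1A and HSPA1B fell by 0.63 on the log2 scale (adjusted p = 0.014). HSP90AB1 and HSPD1, in contrast, had changes of -0.10 and -0.10 with adjusted p of 0.81 and 0.82.

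**Figure D4:**
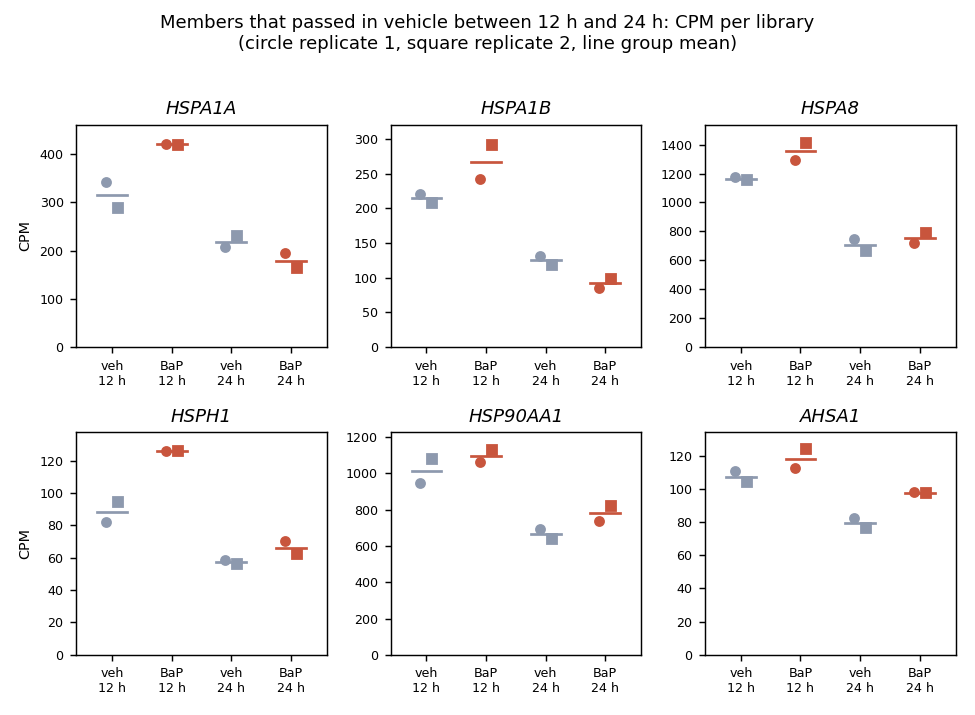
CPM (linear axis from 0) of the 6 members that fell in vehicle between 12 h and 24 h, in every library; grey is vehicle, red is BaP, circles and squares are replicates 1 and 2 and lines are group means. In each panel both vehicle 24 h points lie below both vehicle 12 h points.

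These calls too rested on single libraries. Without replicate 2 of vehicle 24 h none of the 6 passed (adjusted p from 0.097 to 0.47), and without replicate 1 only HSPA1B did (the others 0.07 to 0.34). Without replicate 1 of vehicle 12 h, HSPA1B and HSPH1 passed (the others 0.069 to 0.24), and without replicate 2, HSPA1A, HSPA1B and HSPA8 (the others 0.063 to 0.16). Leaving out either BaP 12 h library left HSPA1B, HSPA8 and HSPH1, with the others from 0.068 to 0.083. Without replicate 1 of BaP 24 h, 9 passed, with DNAJA1, STIP1 and CHORDC1 added (26.5% of the 34), in a fit where 423 of 15329 genes (2.76%) fell.

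Other proteostasis genes were read from lists set beside the members. Like the members, these lists were chosen with earlier results of these data known, which limits the shares below. In edgeR 3.41% of all genes rose and 4.84% fell at 12 h, and 3.11% rose and 2.2% fell at 24 h. Of 27 further heat shock and J-domain genes tested, 1 rose at each time (3.7%), which was near the share of all genes. It was HSPA12A, a divergent HSP70, at 37.7 and 37.9 CPM in BaP 12 h against 17.8 and 17.6 in vehicle 12 h (log2 1.09 ± 0.15 SE, edgeR adjusted p = 0.00018). At 24 h its log2 change was 0.69 ± 0.18 SE (adjusted p = 0.031, 0.091 by DESeq2, and up to 0.46 with a library left out). None of 14 TRiC and prefoldin subunits, the folding machinery for actin and tubulin, passed at 12 h in edgeR (1 higher and 0 lower at an unadjusted p under 0.05, 0 by DESeq2). At 24 h PFDN4 rose (log2 0.60 ± 0.15 SE, adjusted p = 0.03, 0.08 by DESeq2, and 0.57 without replicate 2 of BaP 24 h). PFDN4 alone was 7.14% of the 14, and the median log2 difference of the 14 was 0.27. Without replicate 2 of BaP 24 h, the log2 difference was 0.28 for PFDN4, 0.007 for CCT2 and 0.071 for CCT4.

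Of 21 further HSP90 and HSP70 co-chaperones, RPAP3 and SUGT1 rose at 12 h (log2 0.70 ± 0.18 and 0.52 ± 0.15 SE, edgeR adjusted p = 0.025 and 0.043) and NUDC at 24 h (0.48 ± 0.13 SE, adjusted p = 0.04). These were 9.52% and 4.76% of the 21, against 3.41% and 3.11% of all genes that rose. DESeq2 called none of the 21 at 12 h. With a library left out, the adjusted p of these 3 reached 0.24, 0.31 and 0.38. Of 19 mitochondrial import, folding and protease genes none passed at 12 h in edgeR (0 higher and 3 lower at an unadjusted p under 0.05, 0 by DESeq2). The 1 gene of this list that passed at 24 h was 5.26% of the 19, against 3.11% of all genes that rose. At 24 h PAM16, a part of the import motor, rose (log2 0.66 ± 0.18 SE, adjusted p = 0.048, 0.17 by DESeq2, and up to 0.66 with a library left out).

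HSF1 targets outside the chaperones, several of which other stress factors are known to induce too, gave 6 rises and no fall among 14 tested at 12 h in edgeR, and 3 rises at 24 h, against 3.41% and 3.11% of all genes. DESeq2 called 5 and 2 of the 14 higher. SQSTM1, an autophagy receptor that acts with BAG3 and HSPB8 and is also a target of NRF2, read 617 and 637 CPM in BaP 12 h against 221 and 229 in vehicle 12 h, and 444 and 542 against 220 and 284 at 24 h. The groups were far apart, with log2 changes of 1.48 ± 0.15 SE (edgeR adjusted p = 6.4e-06) and 0.98 ± 0.15 SE (adjusted p = 0.00094). Without replicate 1 of vehicle 24 h the latter had an adjusted p of 0.06. ZFAND2A (AIRAP), an adaptor of the proteasome, rose by 0.52 ± 0.15 SE (adjusted p = 0.039) and 0.92 ± 0.16 SE (0.0025), with adjusted p up to 0.27 and 0.12 when a library was left out. ZFAND5 rose at 12 h by 0.65 ± 0.12 SE (adjusted p = 0.0018).

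Of 18 endoplasmic reticulum chaperones tested, 1 fell at 12 h (5.56%) and 3 at 24 h (16.7%) in edgeR. Of all genes, 4.84% and 2.2% fell, so the 12 h share was near that of all genes. None of the 18 rose, against 3.41% and 3.11% of all genes (at an unadjusted p under 0.05, 1 was higher at 12 h and 0 at 24 h, and DESeq2 called 0 higher). HSPA5 (BiP), the HSP70 of that compartment, read 473 and 571 CPM in BaP 12 h against 754 and 720 in vehicle 12 h, and 554.5 and 480 against 761.5 and 744.5 at 24 h. All 4 BaP libraries lay below all 4 vehicle libraries, with log2 changes of -0.50 ± 0.14 SE (edgeR adjusted p = 0.041) and -0.55 ± 0.14 SE (adjusted p = 0.038). SERPINH1 (HSP47) and PDIA4 fell at 24 h by 0.60 ± 0.13 SE (adjusted p = 0.016) and 0.48 ± 0.13 SE (adjusted p = 0.042) on the log2 scale. When a library was left out, the adjusted p of the 24 h falls reached 0.25 for HSPA5, 0.22 for SERPINH1 and 0.29 for PDIA4, and that of HSPA5 at 12 h reached 0.5.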

How the data were processed

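The deposited gene files hold estimated counts that the authors made with RSEM 1.1.7 from reads aligned with Bowtie 0.12.7, per the submitters' processing notes, on Ensembl release 58 per the file names. The genome build was not given in the sources used here. The deposited fractions are the authors' length-corrected RSEM shares of all transcripts, and were scaled to TPM. Symbols were matched by Ensembl ID (82.0% of IDs, 96.5% of counts).

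Counts were rounded and analysed in R 4.3.3 with edgeR 4.0.16: filterByExpr by group (minimum count 10, total 15; 14746 genes kept), TMM scaling, and a robust quasi-likelihood fit to all 8 libraries with 1 mean per group. Tests were two-sided, with Benjamini-Hochberg adjustment over all genes and a threshold of 0.05. CPM used TMM-scaled library sizes. The SE is the log2 change divided by the square root of F. The model was tried on simulated data.

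Alternatives were DESeq2 1.42.0 (size factors, Wald test), library totals, no filter, a replicate block, fits to the libraries of a comparison, RSEM's posterior mean counts, HSPA1A and HSPA1B summed, and each library left out. Named were every member, and of each other list up to 3 genes with the smallest p plus any that passed at both times. The members and lists were chosen with earlier results of these data known. Reads are not independent molecules, and depth differed between libraries (2592272 to 16533490 counts). Transcript files were not used. Sequences are from RefSeq.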

Additional observations from a re-analysis of the deposited data

How the results depend on the processing

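All 8 rises at 12 h and all 6 falls in vehicle kept their direction in every alternative run (128 and 95 values). These genes were picked because they passed in the same libraries, and their compared groups did not overlap in CPM. Leaving out a library could therefore hardly reverse a sign, and the kept directions are no separate support. The number of members higher at 12 h was 8, 4 by DESeq2's Wald test, and 1 to 10 when each library was left out. All genes higher at 12 h numbered 503 (DESeq2 289; leave-one-out 174 to 724) and all lower 713 (leave-one-out 250 to 969). At 24 h members higher were 0, but 1 with no filter and 1 with the replicate block (leave-one-out 0 to 4), and members lower 0, but 1 with no filter. All genes higher at 24 h were 458 (DESeq2 303, only these libraries 235, leave-one-out 95 to 1230) and all lower 324 (no filter 559, only these libraries 144, leave-one-out 74 to 726). For the difference between the times, members lower were 0, with 2 under no filter, 1 by DESeq2 and 0 to 2 with a library left out. All genes there were 68 higher (no filter 171, leave-one-out 24 to 249) and 12 lower (no filter 69, leave-one-out 4 to 99). In vehicle over time, members lower were 6 (leave-one-out 0 to 9), all genes higher 334 (only these libraries 511, leave-one-out 81 to 589) and all lower 149 (no filter 341, only these libraries 342, leave-one-out 6 to 423). The cause of these shifts was not tested, except that leave-one-out fits have fewer libraries. Log2 values near 0 that did not pass changed sign. Without a filter, and in a fit to the compared libraries alone, HSPD1 at 12 h became -0.016 and CCT4 -0.005. BAG5 at 24 h became -0.009 with DESeq2 size factors, -0.056 with library totals, -0.026 with no filter, -0.028 with DESeq2's test and -0.067 with the block. RPAP3 at 24 h became -0.013 and DNAJB2 in vehicle -0.005 with library totals, and HSPB8 for the difference 0.075 with the block. With a library left out, 12 h ranges that crossed 0 were HSPA9 (-0.055 to 0.11), HSPA13 (-0.089 to 0.51), HSPD1 (-0.081 to 0.070), HSPE1 (-0.009 to 0.16), HSP90AB1 (-0.14 to 0.006), HSPB1 (-0.10 to 0.44), DNAJB5 (-0.073 to 0.080), DNAJC7 (-0.036 to 0.16), HSF1 (-0.038 to 0.17), CRYAB (-0.096 to 0.73), DNAJC8 (-0.039 to 0.22), CCT4 (-0.025 to 0.038), NUDC (-0.15 to 0.059) and SERPINH1 (-0.23 to 0.094). Those at 24 h were HSPA14 (-0.57 to 0.089), HSPD1 (-0.031 to 0.17), HSP90AB1 (-0.12 to 0.012), DNAJB2 (-0.054 to 0.11), DNAJB4 (-0.060 to 0.98), DNAJC7 (-0.11 to 0.089), BAG3 (-0.063 to 0.16), BAG5 (-0.21 to 0.084), CRYAB (-1.86 to 1.55), DNAJC2 (-0.050 to 0.20), RPAP3 (-0.051 to 0.24), SUGT1 (-0.041 to 0.009) and TRAP1 (-0.17 to 0.044). For the difference they were HSPB8 (-0.45 to 0.71) and BAG1 (-0.56 to 0.064), and in vehicle HSPB8 (-0.92 to 0.24), DNAJB2 (-0.054 to 0.13) and DNAJB4 (-0.096 to 0.034).

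Whether a replicate number marks 1 experiment across groups is not in the labels. Deviations of same-numbered libraries over 7299 genes correlated at 0.424 between BaP 12 h and vehicle 12 h, 0.064 between the 24 h groups, -0.039 between the vehicle groups and -0.239 between the BaP groups. The main fit therefore did not pair libraries by number across groups, although the 12 h value may mark shared experiments at that time. The replicate block spanned all groups, and pairing within 12 h alone was not fitted. With the replicate block the members called were 8 at 12 h, 1 at 24 h (HSPB8, log2 1.68, edgeR adjusted p = 0.05), 0 for the difference and 4 in vehicle, where HSPA1A and AHSA1 were lost (adjusted p 0.054 to 0.058). Of the other genes named, it left HSPA5 at an adjusted p of 0.061 at 12 h and 0.059 at 24 h, CD14 at 0.057 at 12 h, and PDIA4, NUDC and PAM16 at 0.064, 0.059 and 0.067 at 24 h. Depth limits HSPB8, DNAJB4, DNAJB5, CRYAB and DNAJA4, whose counts in the shallow BaP 24 h library were 11, 18, 4, 1 and 1.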
